A study of Caenorhabditis elegans with 6 samples.

Results

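The 41 genes described here encode the proteins that find and repair damaged DNA in Caenorhabditis elegans and the checkpoint proteins that halt the cell cycle or start cell death while damage persists. They were chosen by gene identifier and known function, with earlier results of these data known, out of 21951 genes with deposited read counts. They fall into 8 groups: mismatch repair (3 genes), nucleotide excision repair (5), base excision repair (5), lesion bypass with the sliding clamp (4), homologous recombination (10), crosslink repair and helicases (3), end joining (3) and the damage checkpoint (8). All 41 had enough reads to be tested.

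The 6 libraries were made from poly(A)-selected RNA of whole wild-type worms, at the gravid young adult stage. Of the 6, 3 came from animals exposed to 100 mM ethyl carbamate for 24 h, and 3 from control animals. Ethyl carbamate, or urethane, is a carcinogen of fermented food and drink. The ethyl carbamate libraries held 20176242 to 21258740 counted reads and the control libraries 19026133 to 22416213, and each of the 41 genes had between 153 and 14978 reads in every library.

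As background, each repair route handles a different kind of lesion. Mismatch repair corrects replication errors, base excision repair removes small altered bases, nucleotide excision repair cuts out bulky adducts, bypass polymerases copy past lesions, and recombination and end joining rejoin broken chromosomes. In mammals ethyl carbamate is oxidised to an epoxide that forms etheno adducts on DNA bases. Somatic cells of the adult worm no longer divide. Division goes on in the germline, which also carries out meiosis, and in the embryos that gravid animals hold. In germ cells the kinases ATM-1 and ATL-1 signal to CHK-1, and CEP-1, the worm p53, switches on the cell death genes egl-1 and ced-13.

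After ethyl carbamate the transcripts of most of these genes were modestly lower, and none was called higher. By the quasi-likelihood test of edgeR, adjusted over 14705 genes by the Benjamini-Hochberg method at a threshold of 0.05, 36 of the 41 genes fell, where 36.3% of all tested genes were called lower and 40.0% were called higher. The falls ran from 1.08-fold to 1.74-fold, with a median of 1.35-fold. Of the 36, 6 fell by at least 1.5-fold and none by 2-fold, a size that 3.34% of all tested genes reached. The median log2 fold change of the 41 genes was −0.39, against 0.047 for all tested genes. In 37 of the 41 genes every ethyl carbamate library lay below every control library, which held for 37.1% of all tested genes. The 5 genes that did not pass the test were mlh-1, nth-1, rev-1, rfs-1 and atm-1. At an unadjusted p under 0.05, 37 genes were lower and none was higher. The share of all tested genes at that threshold was not counted, so this adds no support. The authors' deposited table called 37 of the 41 lower and none higher at the same threshold. It called 24.4% of its 21951 genes lower, a share over more genes than the 14705 tested here. All 36 calls made here were among the 37, and both rest on the same read counts.

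**Figure D1:**
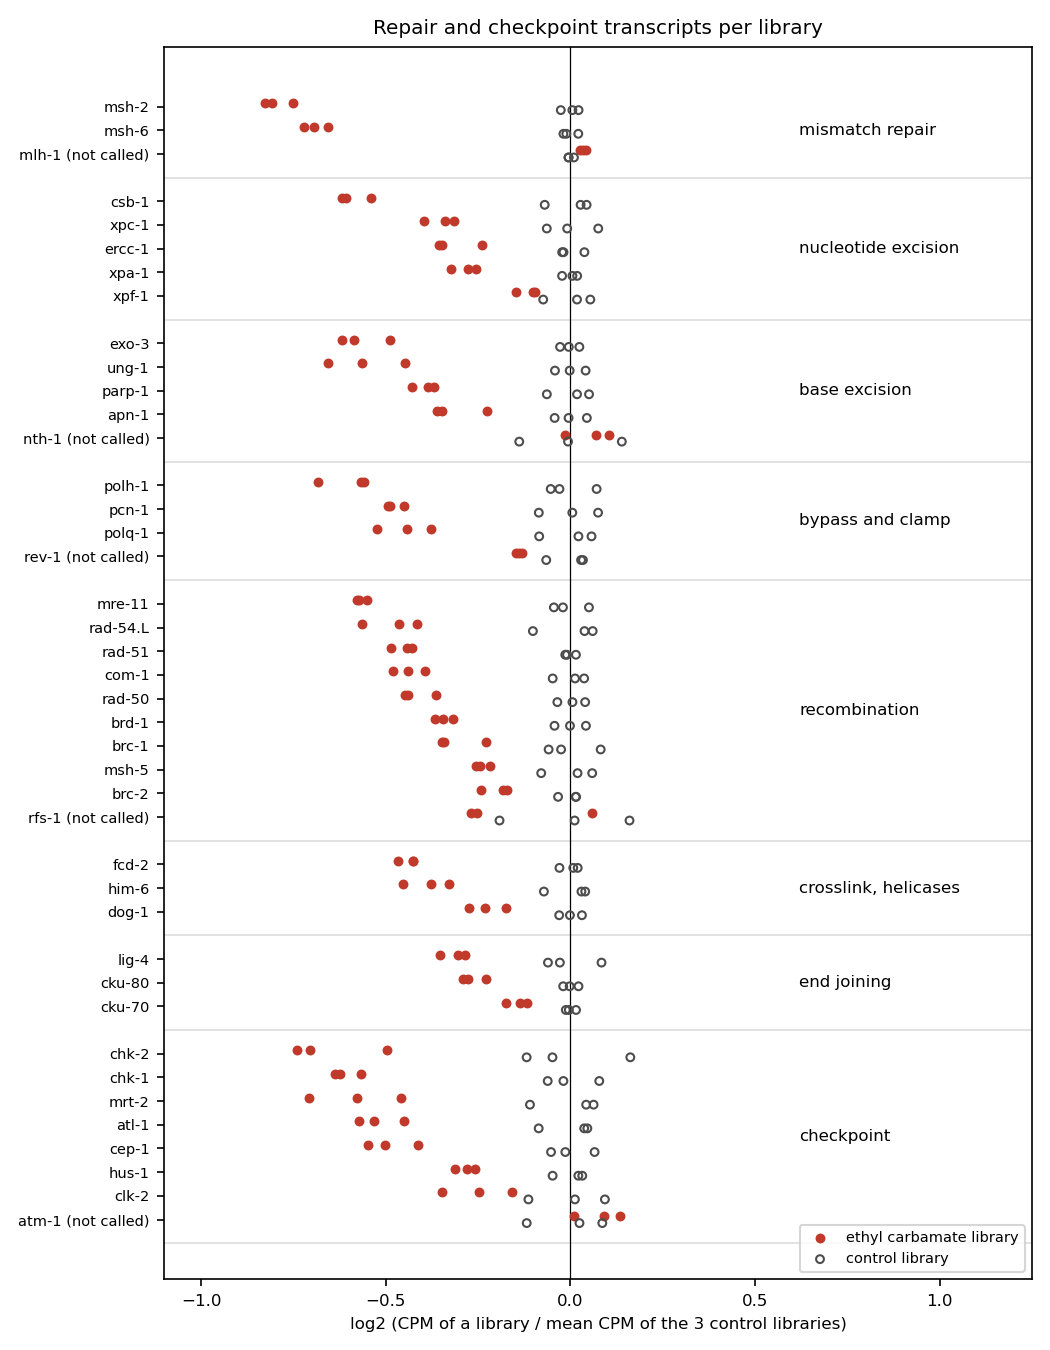
Level of each repair and checkpoint gene in each library, as log2 of its scaled read count (CPM) over the mean of the 3 control libraries, with the genes in 8 functional groups down the page; filled red points are ethyl carbamate libraries and open points are control libraries. In 37 of the 41 genes all 3 red points lie to the left of all 3 open points, and the 5 genes marked as not called did not pass the test.

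Summed over the 41 genes, the ethyl carbamate libraries had 3059, 3088 and 3106 CPM, and the control libraries had 4201, 4067 and 4052 CPM. CPM here are read counts on a common scale, set by library size after trimmed-mean (TMM) scaling, which sets libraries level on the bulk of the genes. The TMM factors moved with the groups, at 1.06 to 1.08 in ethyl carbamate and 0.917 to 0.952 in control libraries. Before that scaling the sums were 3236 to 3339 CPM of the unscaled library in ethyl carbamate and 3818 to 3855 in control libraries, which also did not overlap.

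The size of the fall depended on scaling. With libraries scaled by size only, the median log2 fold change of all tested genes shifted by 0.19, 25 of the 41 genes were called lower and 3 were called higher (atm-1, mlh-1 and nth-1), where 23.2% of all tested genes were called lower and 49.1% higher. The median of the 41 genes was then −0.19. Set against the median of all tested genes in the same fit, the 41 genes stood at −0.43 with TMM, −0.43 with library size only and −0.43 with median-ratio scaling. These scalings move all genes of a library together, so the 3 values are alike by construction and are no separate support. With edgeR on the genes of at least 5 FPKM (fragments per kilobase of gene, scaled to library size) in 3 libraries, 33 of the 41 were lower, 2 were higher (atm-1 and mlh-1), where 38.5% of all genes in that fit were called lower and 39.6% higher. The 41 genes stood at −0.27 relative to the median of that gene set.

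**Figure D2:**
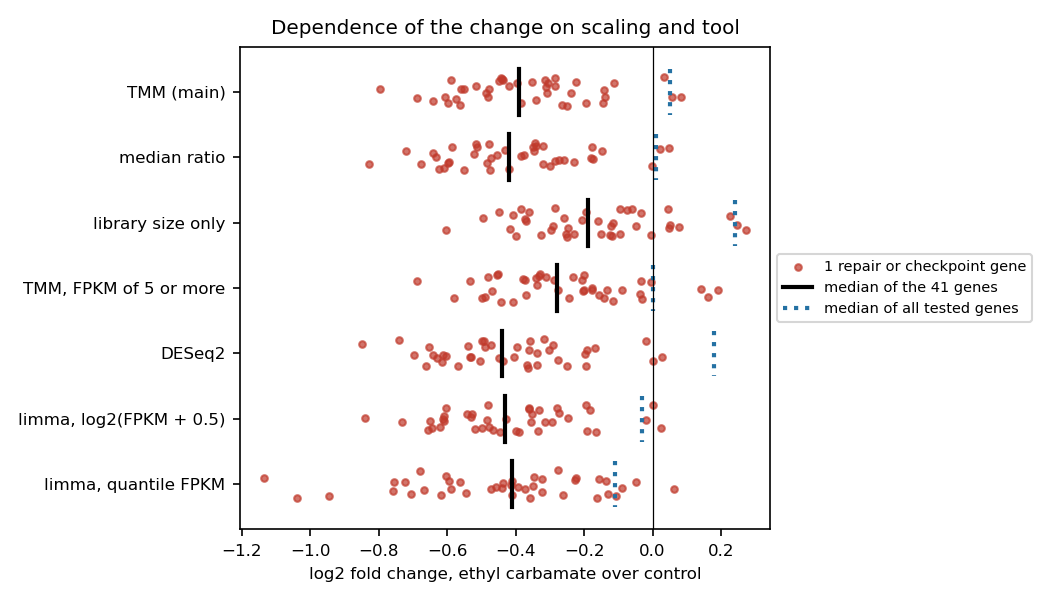
Log2 fold change of ethyl carbamate over control for each of the 41 genes (points) under 7 scalings or tools, listed down the page; the black bar is the median of the 41 genes and the dotted blue bar the median of all tested genes. The black bar lies left of the blue one in every line, at −0.39 against 0.05 in the main analysis and at −0.19 against 0.24 with library size only.

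Abundant genes as a whole were lower in the ethyl carbamate libraries. The median log2 fold change of all tested genes was 0.66 at an average log2 CPM of 0 to 2, 0.29 at 2 to 5, −0.22 at 5 to 8 and −0.40 above 8. Of the 41 genes, 33 lie between 5 and 8 on this scale, and their median log2 fold change was −0.39. In that range 31 of the 33 were called lower, where 62.9% of all tested genes were. Abundance moved with the result in this way, and its part in the result was not tested.

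**Figure D3:**
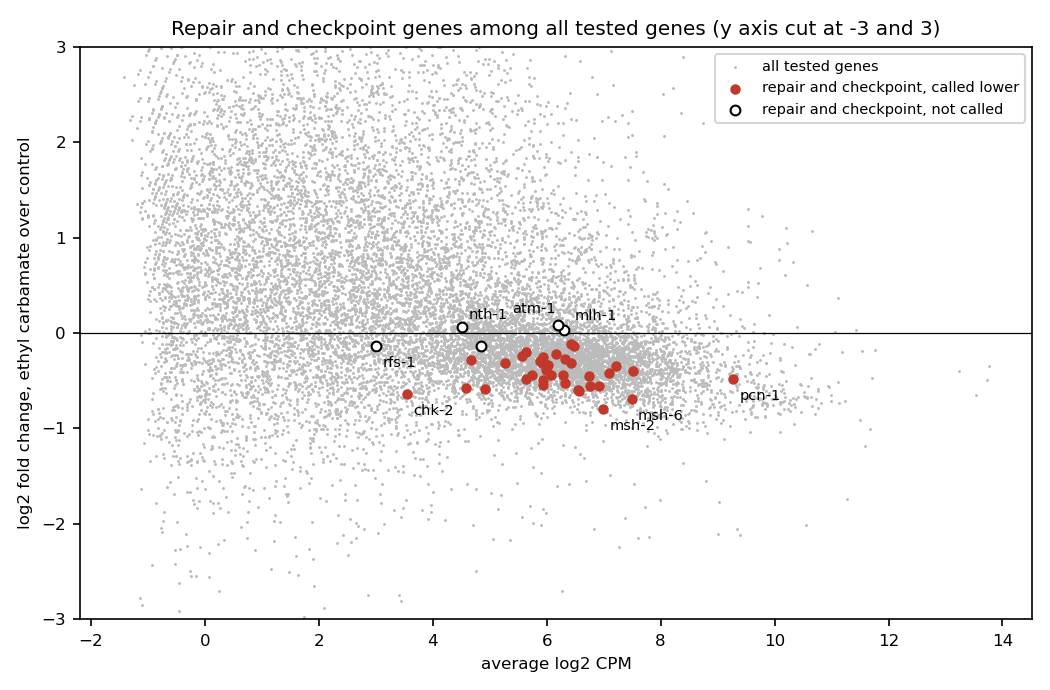
Log2 fold change of ethyl carbamate over control against average log2 CPM for the tested genes (grey; 432 lie beyond the vertical limits of −3 and 3 and are not drawn), with the repair and checkpoint genes called lower in red and the 5 not called as open circles. The red points lie between −0.80 and −0.11 on the vertical axis, and pcn-1 stands to the right of the others at an average log2 CPM of 9.27.

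Mismatch repair genes showed the widest spread. Of the pair that recognises mismatches, msh-2 (H26D21.2, chromosome I) measured 92.5, 91.3 and 96.2 CPM in ethyl carbamate libraries and 163, 165 and 159 CPM in control libraries. Its partner msh-6 (Y47G6A.11, chromosome I) averaged 138 ± 3.06 CPM in ethyl carbamate and 222 ± 3.31 CPM in control libraries (SD, n = 3 each, here and below). The log2 fold changes were −0.80 (SE 0.038, edgeR adjusted p = 9.39e-14) and −0.69 (SE 0.037, edgeR adjusted p = 6.24e-13). The third gene, mlh-1 (T28A8.7, chromosome III, 13509301 to 13514570, 8 exons), encodes the factor recruited after recognition. It measured 79.7, 80.7 and 80.1 CPM in ethyl carbamate and 78.0, 78.8 and 78.0 CPM in control libraries. Its libraries did not overlap, with ethyl carbamate higher, but the log2 fold change of 0.03 did not pass the test (95% interval −0.05 to 0.12, edgeR adjusted p = 0.452). It turned to −0.02 with DESeq2 and was called higher with scaling by library size (0.22) and among genes of at least 5 FPKM (0.14).

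Read-count ratios between 2 genes of the same library are free of library scaling. The msh-2 to mlh-1 ratio was 1.16, 1.13 and 1.2 in ethyl carbamate libraries and 2.08, 2.09 and 2.04 in control libraries. The msh-6 to mlh-1 ratio averaged 1.72 ± 0.044 in ethyl carbamate and 2.83 ± 0.05 in control libraries. The msh-2 to msh-6 ratio, by contrast, moved less, with values of 0.675 to 0.684 in ethyl carbamate and 0.722 to 0.747 in control libraries. The groups overlapped in none of these 3 ratios. These pairs, and those below, were chosen with the values known and are given as descriptions without a test. How often other pairs of genes also separate the groups was not counted.

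Nucleotide excision repair genes all fell, where 36.3% of all tested genes did and 62.9% at log2 CPM 5 to 8. The 5 log2 fold changes ran from −0.59 to −0.11. The largest fall was that of csb-1 (F53H4.1, chromosome X, 15861294 to 15865918, 10 exons), whose product detects RNA polymerase stalled at a lesion. It measured 23.8, 25.0 and 23.7 CPM in ethyl carbamate and 37, 34.6 and 37.4 CPM in control libraries, a 1.5-fold fall (edgeR adjusted p = 3.81e-08). The gene xpc-1, whose product finds distorted DNA across the genome, fell 1.28-fold, and xpa-1, whose product verifies the lesion, fell 1.22-fold. The gene ercc-1, one subunit of the nuclease that cuts beside the lesion, fell 1.24-fold. Its partner xpf-1 fell 1.08-fold, with 81 to 84.1 CPM in ethyl carbamate and 85.3 to 93.2 CPM in control libraries (edgeR adjusted p = 0.0227). The xpf-1 call was lost without control replicate 1 (edgeR adjusted p = 0.0761) or ethyl carbamate replicate 3 (edgeR adjusted p = 0.0838), and its log2 fold change was −0.01 among genes of at least 5 FPKM and 0.08 with library size only, which also ended the xpa-1 call. Both xpf-1 and ercc-1 overlap genes on the opposite strand in the deposited gene models, and no source used here says whether counting used strand, so reads of such a pair cannot be told apart. The same holds for apn-1, nth-1, parp-1, polq-1, brc-2, fcd-2, cku-70 and clk-2 below, and in WBcel235 also for rev-1 and rad-54.L. Of the 31 genes without such an overlap in the deposited models, 27 were called lower, against 36.3% of all tested genes.

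Base excision repair genes fell in 4 of 5 cases, where 36.3% of all tested genes did and 62.9% at log2 CPM 5 to 8. The largest fall was in exo-3 (R09B3.1, chromosome I), one of the endonucleases that cut the DNA backbone where a base has been removed. It measured 84.7, 92.6 and 86.6 CPM in ethyl carbamate and 130, 132 and 127 CPM in control libraries, a 1.47-fold fall (edgeR adjusted p = 1.22e-10). The other such endonuclease gene, apn-1, fell 1.24-fold. The uracil glycosylase gene ung-1 fell 1.47-fold, to 49.9 ± 3.63 CPM in ethyl carbamate against 73.2 ± 2.11 CPM in control libraries. The gene parp-1, whose product marks DNA breaks with poly(ADP-ribose), fell 1.32-fold. By contrast nth-1 (R10E4.5, chromosome III, 4291543 to 4294253, 6 exons), the glycosylase gene for oxidised pyrimidines, measured 22.3, 23.6 and 24.2 CPM in ethyl carbamate and 24.8, 22.4 and 20.4 CPM in control libraries. These values overlap, and its log2 fold change of 0.06 was not called (95% interval −0.11 to 0.22, edgeR adjusted p = 0.519). It was −0.02 without control replicate 3, and with library size only it was called higher at 0.25.

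Among the bypass genes, polh-1 (F53A3.2, chromosome III, 1945058 to 1950269, 9 exons), the polymerase eta gene, fell most. It measured 76.3, 76.6 and 70.4 CPM in ethyl carbamate and 118.7, 108.9 and 110.7 CPM in control libraries, a 1.51-fold fall (edgeR adjusted p = 2.06e-10). The gene polq-1, whose polymerase theta rejoins breaks through short matching ends, fell 1.36-fold. The sliding clamp gene pcn-1 (W03D2.4, chromosome IV, 4047937 to 4049448, 3 exons), the worm PCNA, was by far the most abundant of the 41. It had 510, 513 and 526 CPM in ethyl carbamate and 757, 722 and 678 CPM in control libraries, and it fell 1.39-fold (edgeR adjusted p = 2.97e-09). For rev-1 (ZK675.2, chromosome II, 7900622 to 7904667, 11 exons), a deoxycytidyl transferase of bypass, the values were 27.4, 27.3 and 27.6 CPM in ethyl carbamate and 30.9, 28.9 and 30.8 CPM in control libraries. Its groups did not overlap, and its log2 fold change of −0.14 just missed the threshold (edgeR adjusted p = 0.0501). Without control replicate 2 it was called (edgeR adjusted p = 0.0236), as it was in the authors' deposited table (adjusted p = 0.0483), while with library size only it stood at 0.05.

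Homologous recombination genes fell in 9 of 10 cases, where 36.3% of all tested genes did and 62.9% at log2 CPM 5 to 8. The median log2 fold change over the 10 was −0.38. The complex that first binds and trims broken ends fell: mre-11 (ZC302.1, chromosome V, 10733925 to 10736868, 9 exons) measured 96.4, 98.4 and 96.8 CPM in ethyl carbamate and 142, 140 and 149 CPM in control libraries. That was a 1.48-fold fall (edgeR adjusted p = 4.17e-11), and its partner rad-50 and the nuclease cofactor com-1 fell 1.34-fold and 1.35-fold. The recombinase gene rad-51 (Y43C5A.6, chromosome IV, 10281634 to 10284244, 8 exons), whose product coats the trimmed end and searches for a template, measured 92.8, 89.3 and 91.9 CPM in ethyl carbamate and 126, 124 and 124 CPM in control libraries. It fell 1.37-fold (edgeR adjusted p = 1.02e-09), and rad-54.L, a motor that assists it, fell 1.4-fold.

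The ubiquitin ligase gene brc-1 (C36A4.8, chromosome III, 3853102 to 3862968, 10 exons), the worm BRCA1, had 52.5, 52.7 and 57.1 CPM in ethyl carbamate and 65.7, 64.2 and 70.8 CPM in control libraries. It fell 1.24-fold (edgeR adjusted p = 1.93e-05) and its partner brd-1 fell 1.27-fold. The read ratio of brc-1 to brd-1 overlapped between the groups, at 0.896 to 0.993 in ethyl carbamate and 0.873 to 0.998 in control libraries. The smallest called falls of the group were those of brc-2, the worm BRCA2 and loader of RAD-51 (1.15-fold), and of msh-5, which stabilises meiotic crossovers (1.18-fold). The brc-1, brc-2 and msh-5 calls were not made with library size only, and brc-2 was not called among genes of at least 5 FPKM. The RAD-51 paralog gene rfs-1 (C30A5.2, chromosome III, 8226478 to 8229989, 5 exons) had the fewest reads of the 41, 159 to 187 in ethyl carbamate and 153 to 181 in control libraries. Its 8.76, 6.99 and 7.07 CPM in ethyl carbamate overlapped its 9.41, 7.37 and 8.49 CPM in control libraries. Its log2 fold change of −0.14 was not called (95% interval −0.42 to 0.13, edgeR adjusted p = 0.322). It stood at 0.05 with library size only and was called lower at −0.59 on quantile-normalized FPKM with limma (adjusted p = 0.00268).

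Crosslink repair and helicase genes all fell, where 36.3% of all tested genes did and 62.9% at log2 CPM 5 to 8. The largest fall was in fcd-2 (Y41E3.9, chromosome IV, 15025710 to 15037036, 10 exons), the worm FANCD2, at 57.8, 57.8 and 56.2 CPM in ethyl carbamate and 76.1, 78.8 and 78.1 CPM in control libraries (1.36-fold, edgeR adjusted p = 1.26e-08). The BLM helicase gene him-6 fell 1.31-fold, and dog-1, the FANCJ helicase gene that protects guanine tracts, fell 1.17-fold. End joining genes fell least of the repair routes in the main analysis, with a median log2 fold change of −0.27 over 3 genes. Nucleotide excision repair stood at −0.31, and the order of the routes was not tested. The ligase gene lig-4 (C07H6.1, chromosome III, 7521463 to 7524870, 11 exons) measured 34.7, 35.2 and 33.6 CPM in ethyl carbamate and 41.1, 45.5 and 42.1 CPM in control libraries (1.24-fold, edgeR adjusted p = 5.51e-05). The genes of the Ku ring that binds broken ends, cku-80 and cku-70, fell 1.2-fold and 1.1-fold, and the cku-70 call was also lost among genes of at least 5 FPKM (−0.04) and on quantile-normalized FPKM (−0.05). With library size only, none of the 3 end joining genes was called, nor was dog-1.

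Checkpoint genes fell in 7 of 8 cases, where 36.3% of all tested genes did and 62.9% at log2 CPM 5 to 8. The exception was 1 of the paired damage kinases. The ATR kinase gene atl-1 (T06E4.3, chromosome V, 9634849 to 9645595, 19 exons) measured 65.6, 63.8 and 69.4 CPM in ethyl carbamate and 97.3, 89.3 and 97.9 CPM in control libraries. It fell 1.43-fold (edgeR adjusted p = 3.80e-09). The ATM kinase gene atm-1 (Y48G1BL.2, chromosome I) measured 71.5, 75.6 and 77.9 CPM in ethyl carbamate and 75.4, 72.2 and 65.4 CPM in control libraries, which overlap. Its log2 fold change of 0.08 was not called (95% interval −0.03 to 0.19, edgeR adjusted p = 0.159). Its direction depended on scaling: it was called higher with library size only (0.27) and among genes of at least 5 FPKM (0.19), and lower at −0.41 on quantile-normalized FPKM with limma. No factor per library changes the read ratio of atl-1 to atm-1, but quantile normalization is not such a factor. The ratio was 0.917, 0.844 and 0.891 in ethyl carbamate and 1.29, 1.24 and 1.5 in control libraries, with no overlap.

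Downstream of the kinases, chk-1 fell 1.52-fold, to 75.4 ± 2.02 CPM in ethyl carbamate against 115 ± 5.74 CPM in control libraries. The meiotic kinase gene chk-2 (Y60A3A.12, chromosome V, 19908086 to 19916023, 14 exons) had the largest fall of the group and few reads, 186, 229 and 191 in ethyl carbamate and 277, 285 and 279 in control libraries. Its levels were 8.72, 10.1 and 8.49 CPM in ethyl carbamate and 15.9, 13.7 and 13.1 CPM in control libraries (1.56-fold, edgeR adjusted p = 1.63e-05). The p53 gene cep-1 (F52B5.5, chromosome I) measured 49.0, 50.7 and 53.8 CPM in ethyl carbamate and 71, 69.1 and 75.0 CPM in control libraries, a 1.4-fold fall (edgeR adjusted p = 2.29e-08). Of the genes for the clamp that is loaded at damage, mrt-2 fell 1.49-fold and hus-1 fell 1.22-fold. The telomere and checkpoint gene clk-2 fell 1.19-fold. The hus-1 and clk-2 calls were not made with library size only.

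**Figure D4:**
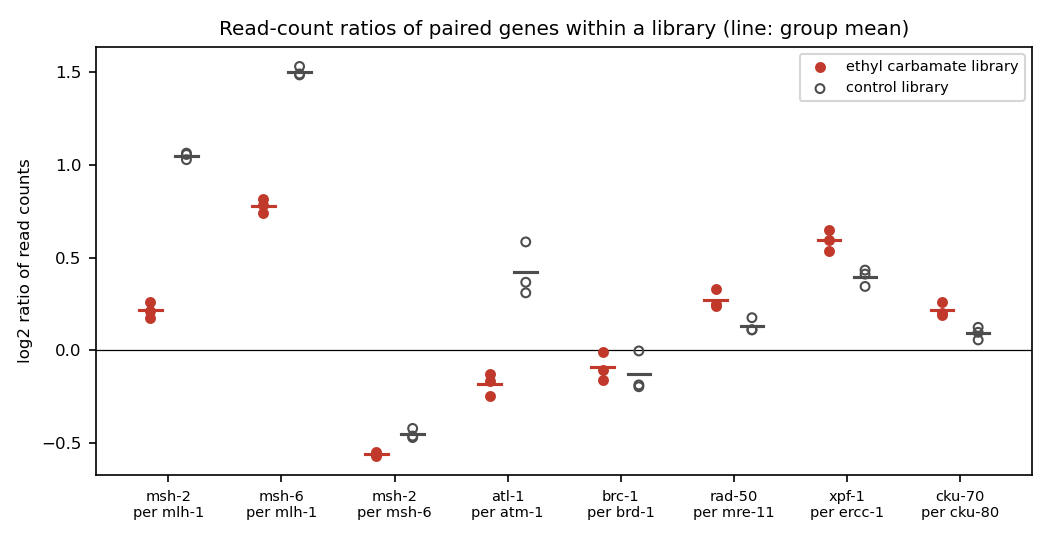
Log2 ratio of the read counts of 2 genes within each library for 8 pairs along the horizontal axis; red points are ethyl carbamate libraries, open points control libraries, and lines the group means. The groups lie farthest apart for msh-2 per mlh-1, at 0.22 against 1.05, and overlap for brc-1 per brd-1.

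Among the remaining pairs, the xpf-1 to ercc-1 ratio averaged 1.51 ± 0.063 in ethyl carbamate and 1.31 ± 0.042 in control libraries. The rad-50 to mre-11 ratio was 1.21 ± 0.043 in ethyl carbamate and 1.10 ± 0.028 in control libraries, and the cku-70 to cku-80 ratio was 1.16 ± 0.036 in ethyl carbamate and 1.07 ± 0.026 in control libraries. None of these 3 overlapped between the groups. For xpf-1, ercc-1 and cku-70, reads of genes on the opposite strand cannot be told apart, as stated above.

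Among genes that work with CEP-1, no common direction was seen. Of its death gene targets, egl-1 was called higher, at 3.66, 4.22 and 4.05 CPM in ethyl carbamate and 3.27, 2.51 and 3.05 CPM in control libraries (log2 fold change 0.44, SE 0.177, edgeR adjusted p = 0.03). That rests on 78 to 96 reads in ethyl carbamate and 52 to 65 in control libraries. The call was lost without control replicate 2 (edgeR adjusted p = 0.134), without ethyl carbamate replicate 2 or 3 (edgeR adjusted p = 0.0952 and 0.0689) and with DESeq2 (adjusted p = 0.171), and the direction turned on quantile-normalized FPKM (−0.14). The other target, ced-13, had 2, 1 and 0 reads in ethyl carbamate and 1, 0 and 2 reads in control libraries, so that no difference was detectable at this depth. The kinase gene abl-1 rose 1.85-fold, to 81.1 ± 2.67 CPM in ethyl carbamate against 43.7 ± 1.72 CPM in control libraries (edgeR adjusted p = 8.19e-13). The acetyltransferase gene cbp-1 rose 1.18-fold, while prmt-5, a methyltransferase gene, fell 1.39-fold and ape-1, an inhibitor of CEP-1, fell 1.12-fold. The ape-1 call was not made with library size only (0.03) or among genes of at least 5 FPKM (−0.05).

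Further genes of the same repair and checkpoint routes were mostly lower too. Of 46 tested genes from lists of 47, 37 fell, 1 rose and 8 were not called, with a median log2 fold change of −0.44. Of all tested genes 36.3% were called lower and 40.0% higher. At an average log2 CPM of 5 to 8, 62.9% were called lower. With library size only, 32 of the 46 were called lower and 5 higher, against 23.2% and 49.1% of all tested genes. In mismatch repair 3 of 3 fell, with the exonuclease gene exo-1 down 1.49-fold. In the excision routes 7 of 10 fell, with crn-1, the flap nuclease gene, down 1.59-fold. In bypass 3 of 5 fell, with the ubiquitin conjugation gene uev-1 down 1.59-fold, while rev-3, the catalytic gene of polymerase zeta, was called 1.15-fold higher at 25.0 ± 1.34 CPM in ethyl carbamate against 21.8 ± 1.58 CPM in control libraries (edgeR adjusted p = 0.0194). The rev-3 call was lost without control replicate 3 (edgeR adjusted p = 0.126) or ethyl carbamate replicate 3 (edgeR adjusted p = 0.09) and with DESeq2 (adjusted p = 0.215), and the direction turned on quantile-normalized FPKM (−0.36). Of 19 further recombination and crosslink genes 15 fell, with rmh-2, a scaffold gene of the BLM complex, down 1.74-fold. All 9 further checkpoint and cell cycle genes fell, and the damage scaffold gene mus-101 and the phosphatase gene cdc-25.1 both fell 1.46-fold.

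The level per length differed widely among the 41 genes. In FPKM, pcn-1 averaged 508 ± 7.81 in ethyl carbamate and 734 ± 46.0 in control libraries, against a median over the 41 genes of 27 in ethyl carbamate and 34.2 in control libraries. The lowest was chk-2, at 5.34 ± 0.486 FPKM in ethyl carbamate and 8.67 ± 0.968 FPKM in control libraries. The kinase pair was also low: atl-1 averaged 8.41 ± 0.367 FPKM in ethyl carbamate and 12.5 ± 0.673 FPKM in control libraries, and atm-1 averaged 9.74 ± 0.391 FPKM in ethyl carbamate and 9.57 ± 0.748 FPKM in control libraries. Across the 41 genes the log2 fold change had a Spearman rho of −0.29 with average log2 CPM and −0.01 with deposited gene length, given as a description, since all genes share the same 6 libraries.

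The 41 genes were unevenly placed in the genome. Chromosome III held 15 of them (36.6%, against 15.4% of all tested genes) and chromosome I held 11 (26.8%, against 15.8%). Chromosome X held 1, csb-1 (2.44%, against 15.2%). The median log2 fold change of all tested genes was −0.13 on chromosome III, −0.11 on chromosome I and 0.51 on chromosome X.

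Markers of germ cells moved with these genes. The counts that follow stand beside 36.3% of all tested genes called lower and 40.0% called higher. At an average log2 CPM of 5 to 8, 62.9% of all tested genes were called lower. At 8 and above, the median log2 fold change of all tested genes was −0.4. The median was −0.56 for the germline list and −0.44 for the oocyte list. The part of abundance in these falls was not tested. Of 20 germline genes 17 fell and 2 rose, with a summed level of 5680 to 5850 CPM in ethyl carbamate and 8980 to 9510 CPM in control libraries. All 10 oocyte genes fell (6250 to 6260 CPM in ethyl carbamate, 8230 to 8890 CPM in control libraries), as did 6 of 7 tested early embryo genes (137 to 144 CPM in ethyl carbamate, 194 to 205 CPM in control libraries). Most early embryo genes were low: only 2 had at least 5 FPKM in 3 libraries, and both were called lower in that fit. Of 7 sperm genes only 2 were tested, 1 lower and 1 higher, at summed levels of 5.80 to 6.98 CPM in ethyl carbamate and 7.40 to 9.80 CPM in control libraries, and spe-11, spe-38, gsp-3 and gsp-4 had 0 reads in at least 1 library. Somatic markers went the other way: 7 of 8 neuron, 6 of 7 muscle and 4 of 5 intestine genes rose. Their summed levels were 492 to 515, 2750 to 2900 and 685 to 755 CPM in ethyl carbamate, against 387 to 400, 1860 to 1990 and 524 to 564 CPM in control libraries. In RNA of whole animals, fewer cells of a type and less RNA per cell cannot be told apart, and the part of germ cell content in the falls was not tested. Reads of the 41 genes per read of the 20 germline genes were 0.523, 0.544 and 0.540 in ethyl carbamate and 0.442, 0.453 and 0.445 in control libraries, with no overlap. Per read of the 10 oocyte genes, the ratio overlapped between the groups, at 0.489 to 0.497 in ethyl carbamate and 0.472 to 0.492 in control libraries.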

How the data were processed

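For each gene the authors deposited raw read counts, whole numbers by the file headers and values, beside FPKM values, normalized counts (a signal, the counts over a size factor per library), log2 fold changes and p-values. A second deposited table gave the same FPKM for the 41 genes. Per the submitters' processing notes, the tools were DESeq2 1.20.0, StringTie 1.3.3, HISAT2 2.0.5 and featureCounts 1.5.0-p3. The series text names DEGSeq instead. The DESeq2 fit made here called 5357 genes lower, the same number as the deposited p-values, so that table is no second test. No source used here gives the build, the strand setting or the treatment of multiply matching reads. The series text calls the 3 replicates of each group biological, and each pair differed by more than counting noise (chi-square of 2.48 to 3.87 per gene). The prefix EV in some sample names is not explained there.

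The test on counts was run in R 4.3.3 with edgeR 4.0.16: TMM scaling, the filterByExpr filter, a two-sided quasi-likelihood F test with no covariate on all 6 libraries, Benjamini-Hochberg adjustment over 14705 genes, threshold 0.05. Each SE was derived from the F value. Alternatives used median-ratio scaling, library size only, DESeq2 1.42.0, limma 3.58.1 on log2(FPKM + 0.1, 0.5 or 1), which understates changes of low genes, quantile normalization, other filters, the replicate number as a block and each library left out. In a first test on simulated data, the fit recovered 50% of genes changed 1.25-fold and 72% of those changed 1.5-fold or 2-fold. It recovered 100% at 4-fold and made 3 false calls. Far fewer genes were changed there than the 76.3% called in these data, so the scaling was not tested.

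The genes, lists and naming rule were chosen with earlier results of these data known. The rule gives every library's value for each group's largest called fall and every gene not called, and for cep-1, atm-1, atl-1, rad-51, brc-1 and pcn-1, with the largest change of each further list, egl-1 and ced-13. The genes rev-3, cbp-1, prmt-5 and ape-1 were named after their values were seen. Symbols for all 41 genes came from RefSeq. Coordinates and exon numbers are those of the Ensembl 115 annotation of WBcel235, while counts are on the authors' gene models, of which 31 of 41 lie within 200 bases of it at both ends. For brc-1 and atl-1 the deposited length exceeds the deposited span. Promoter and protein sequences were not analysed here. Figures were drawn with matplotlib 3.10.9.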

Additional observations from a re-analysis of the deposited data

How the results depend on the processing

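Of 697 values for single repair and checkpoint genes under 17 alternatives, 656 kept their direction and side of the threshold and 12 changed sign. In all 18 calls were lost, 11 of them with library size only, and 14 were gained. The count of genes called lower was 36 in the main analysis, 35 to 37 with a library left out, 33 among genes of at least 5 FPKM, 35 at a threshold of 0.01, 36 to 38 with DESeq2, median-ratio scaling, limma or no filter, and 25 with library size only. Of all tested genes, 36.3% were lower in the main analysis, 38.5% at 5 FPKM or more and 23.2% with library size only. At the 0.01 threshold 4804 of 14705 were. With a library left out 5143 to 5241 were, of 14898 to 15079. The numbers were 5357 of 21951 with DESeq2, 5619 of 14705 with median-ratio scaling and 5460 of 21951 with no filter. With limma 5592 to 5617 of 13917 were lower, and 6132 with quantile normalization, where 38 of the 41 were. The count called higher was 0 in the main analysis, 2 among genes of at least 5 FPKM and 3 with library size only. Of all genes in those fits, 40.0%, 39.6% and 49.1% were called higher. With library size only, 3 nucleotide excision and 0 end joining genes were called lower, where 23.2% of all tested genes were. The median of the 41 genes was −0.44 with DESeq2 and limma on log2(FPKM + 0.1), −0.43 and −0.42 with pseudocounts of 0.5 and 1, −0.41 with quantile normalization, −0.42 with median-ratio scaling, −0.39 with no filter, −0.28 among genes of at least 5 FPKM, −0.19 with library size only, and −0.41 to −0.36 with a library left out. Relative to the median of all tested genes, an alternative chosen after seeing the data, it ran from −0.61 to −0.27. With the replicate block 36 genes were lower and none higher, where 5345 of all 14705 tested genes were lower and 5851 higher. No shared deviation by replicate number was seen. Deviations of same-numbered libraries correlated at 0.002 to 0.009. Only 1 of the 3 ethyl carbamate libraries correlated best with the control library of its own number. These correlations cannot show whether the libraries were prepared in pairs.

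Signs changed for mlh-1 (−0.019 with DESeq2 and with each limma pseudocount, −0.001 with median-ratio scaling) and nth-1 (−0.089 with quantile normalization, −0.021 without control replicate 3, against 0.118 without control replicate 1). With library size only they changed for xpf-1 (0.077), rev-1 (0.052), rfs-1 (0.046), cku-70 (0.048) and ape-1 (0.033). With quantile normalization they changed for atm-1 (−0.411), rev-3 (−0.358), egl-1 (−0.145) and ape-1 (0.04). Sizes moved in both directions there. The falls of chk-2 (−1.135) and csb-1 (−1.038) passed 2-fold, which none did in the main analysis, while msh-2 fell less (−0.679). The difference in log2 count ratio brc-1 per brd-1 was −0.004 without ethyl carbamate replicate 3 and 0.099 without control replicate 3. The cause was not tested. Depth limits what can be said of rfs-1, egl-1 and ced-13.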

Other observations

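Genes of DNA replication, which supply the copying machinery that repair also uses, fell together. All 23 tested replication genes passed the test as lower (median −0.56 on the log2 scale), where 36.3% of all tested genes did, and 62.9% of those at an average log2 CPM of 5 to 8. With libraries scaled by size only 22 did, against 23.2% of all tested genes. The summed level was 4550 to 4640 CPM in ethyl carbamate and 6650 to 6950 CPM in control libraries. The helicase gene mcm-2 fell 1.91-fold, with 296, 291 and 296 CPM in ethyl carbamate and 587, 569 and 529 CPM in control libraries (edgeR adjusted p = 3.63e-14). The ribonucleotide reductase genes rnr-1 and rnr-2, which supply deoxynucleotides, fell 1.69-fold and 1.36-fold. rnr-1 and rnr-2 were chosen after their values were seen. The fall of mcm-2 was larger than any among the 41 repair and checkpoint genes, where msh-2 fell 1.74-fold, and this difference was not tested.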
